A study of Mus musculus with 18 samples.

Results

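The adrenergic receptors described here are 8 genes, Adrb1, Adrb3, Adra1a, Adra1b, Adra1d, Adra2a, Adra2b and Adra2c, chosen by symbol from the 52093 gene symbols (53445 transcript rows) of the expression tables. A symbol with several rows was represented by its most abundant one (mean RPKM across samples), but each of the 8 genes had 1 row. RPKM, the number of reads on a transcript relative to its length and to the reads of the library, is the scale on which levels of different genes are compared below. The study dealt with Gi signaling in adipocytes and glucose homeostasis, and used RNA sequencing to find receptors that couple to Gi proteins in mouse fat. It sequenced RNA of wild type male C57BL/6 mice (C57BL/6J in the sample labels, C57BL/6NTac in the study's supplement), 16 weeks old, fed for 12 weeks with a high-fat diet (HFD). The 3 groups of 6 samples were adipocytes of inguinal white adipose tissue (iWAT), adipocytes of epididymal white adipose tissue (eWAT) and brown adipose tissue (BAT). The white depots were digested with collagenase, strained, and the floating cells were taken as adipocytes, whereas BAT was frozen and extracted whole. One field of the labels calls the BAT samples adipocytes, and another gives regular chow for all 18 samples. The titles and the design give HFD, and the samples were treated as HFD samples. Samples carry the number in their title (1, 2, 3, 4, 5 and 16 in both white depots, 1, 2, 5, 16, 17 and 18 in BAT). Nothing in the labels says what these numbers stand for, so p-values measure the spread between samples, which may be technical in part.

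Noradrenaline from sympathetic nerves and adrenaline from the adrenal medulla act on adipocytes through these receptors. Beta receptors couple to Gs, which raises cyclic AMP, activates protein kinase A and drives lipolysis and, in brown fat, heat production. Alpha1 receptors couple to Gq and phospholipase C, and alpha2 receptors couple to Gi, which lowers cyclic AMP and opposes lipolysis. The beta3 receptor, encoded by Adrb3, is known as a receptor largely restricted to adipocytes in rodents.

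Reads on the transcript rows numbered 26768529 to 30166441 per sample in iWAT, 24655056 to 37438994 in eWAT and 27402247 to 42518483 in BAT. The labelled tissues were checked with marker genes. All 5 adipocyte markers (Adipoq, Plin1, Fabp4, Cidec and Lep) had a mean of at least 1 RPKM in every tissue, and their summed level ran from 11221 to 15701 RPKM in iWAT, from 2511 to 7806 RPKM in eWAT and from 5402 to 6631 RPKM in BAT. Ucp1, the uncoupling protein of brown adipocytes, had 2.26 ± 0.591 RPKM in iWAT, 0.261 ± 0.0844 RPKM in eWAT and 1858 ± 237 RPKM in BAT (mean ± SD, n = 6, as for all levels below). Macrophage markers were also present in the samples labelled eWAT adipocytes. The 5 markers (Cd68, Emr1, Itgam, Mrc1 and Lyz2) summed to 2426 to 3956 RPKM in eWAT, against 429 to 847 RPKM in iWAT and 23.2 to 46.8 RPKM in BAT. None of these 5 was at or under 3 reads in all samples of a tissue. Endothelial markers (4 genes) summed to 99.5 to 280.1 RPKM in iWAT, 33.4 to 71.2 RPKM in eWAT and 68.7 to 99.6 RPKM in BAT, and smooth muscle and pericyte markers (6 genes) to 70.9 to 239 RPKM, 22.6 to 58.8 RPKM and 96.5 to 135.9 RPKM. Sums of 4 fibroblast and progenitor markers fell from iWAT (417 to 605) through eWAT (59.5 to 184.4) to BAT (23.8 to 37.1 RPKM). Dpt, with means of 476, 85.9 and 16.3 RPKM, made up most of these sums. Pdgfra (0.771, 1.06 and 0.929 RPKM), Dcn (12.5, 14.8 and 10.2 RPKM) and Pi16 (0.773, 0.421 and 1.93 RPKM) did not follow that order. The Adra1b and Adra2a means did, as did those of the adipocyte markers Adipoq, Cidec and Lep. Schwann cell markers (4 genes) summed to 5.88 to 16.4 RPKM in iWAT, 0.452 to 0.956 RPKM in eWAT and 50.8 to 67.1 RPKM in BAT, and skeletal muscle markers (3 genes) to 3.77 to 15.9 RPKM, 1.14 to 4.83 RPKM and 1.18 to 91.1 RPKM. T cell and B cell markers (3 genes each) stayed under 2 RPKM in sum in every sample. The part of these other cells in the receptor levels was not tested. In bulk samples such as these, fewer cells of a type and less RNA per cell cannot be told apart.

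Of the 8 rows, 6 have the start and end of their gene in the GENCODE annotation of the mm9 (NCBIM37) mouse genome, while the Adra1d row starts at 131371093 where GENCODE has 131371586 and the Adra2c row ends at 35624412 where GENCODE has 35624410. Adrb1 (chr19:56796862-56799352, plus strand), Adra2a (chr19:54119672-54123472, plus), Adra2b (chr2:127188944-127192957, plus) and Adra2c (chr5:35621215-35624412, plus) are rows of 1 exon. Adrb3 (chr8:28336248-28340060, minus) and Adra1b (chr11:43588108-43714712, minus) have 5 exons, as has Adra1a (chr14:67254088-67390005, plus), and Adra1d (chr2:131371093-131388021, minus) has 2. Of the 8 genes, 5 overlap rows of other symbols, and since no source used here says whether reads were counted by strand, their counts are uncertain to that extent. Adrb3 is overlapped on the other strand by AK080970, whose reads equalled 9.07% to 18.8% of those of Adrb3 in the 18 samples. Adra1a is overlapped by AK039291, AK040829 and AK078237, Adra1d by ENSMUSG00000087524, Adra2a by AK046211 and Adra1b by AK030253, which had 0 reads in every sample. Rows of Adrb1, Adra2b and Adra2c overlap no other row.

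Of the 8 genes, 5 had an entry in a RefSeq promoter table (build GRCm38.p6), namely Adrb1, Adra1b, Adra2a, Adra2b and Adra2c. Entries for Adrb3, Adra1a and Adra1d were not used here. The 250 bases before the RefSeq start are shown for Adrb1, which was higher in BAT than in both white depots, and for Adra1b and Adra2a, which were lower in BAT than in iWAT, so that the sequences of genes with opposite patterns can be read side by side. They were searched on both strands for 6 motifs: TGACGTCA (the cyclic AMP response element), TGACG (5 letters that also begin that element), GGGCGG (GC box), CACGTG (E-box), CCAAT and TATAAA. Capitals mark the matches, on either strand.
Adrb1, chr19:56721867-56722116, plus strand: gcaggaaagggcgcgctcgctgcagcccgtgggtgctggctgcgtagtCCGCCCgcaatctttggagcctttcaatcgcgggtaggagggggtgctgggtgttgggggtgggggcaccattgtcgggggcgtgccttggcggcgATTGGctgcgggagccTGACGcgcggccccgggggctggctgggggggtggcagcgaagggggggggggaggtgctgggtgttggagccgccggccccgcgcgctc
Adra1b, chr11:43901238-43901487, minus strand: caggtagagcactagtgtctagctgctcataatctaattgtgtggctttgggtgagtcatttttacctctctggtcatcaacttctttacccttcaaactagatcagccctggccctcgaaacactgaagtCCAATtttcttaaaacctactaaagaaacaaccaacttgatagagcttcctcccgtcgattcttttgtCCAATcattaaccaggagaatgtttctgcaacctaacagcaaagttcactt
Adra2a, chr19:54045009-54045258, plus strand: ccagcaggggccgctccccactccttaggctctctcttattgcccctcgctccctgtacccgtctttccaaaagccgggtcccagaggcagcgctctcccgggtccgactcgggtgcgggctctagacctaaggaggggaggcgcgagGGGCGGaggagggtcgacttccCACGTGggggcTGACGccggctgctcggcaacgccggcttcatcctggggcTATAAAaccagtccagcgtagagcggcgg
The Adrb1 window, of 74% G and C, held 1 GC box, 1 CCAAT and 1 TGACG, which began 202, 106 and 90 bases before the start. The Adra2a window, of 67.6% G and C, held a GC box, an E-box, a TGACG and a TATAAA, the last of which began 29 bases before the start. In Adra1b, the window at the start of the row held 41.6% G and C and 2 CCAAT, 119 and 51 bases before the start. A second Adra1b entry lies 64721 bases inside the row and is not shown. No TGACGTCA was found in the first 250 bases of the 6 entries of these genes. Over the 32851 entries of the table, 1.55% held TGACGTCA, 17.8% TGACG, 32.7% GGGCGG, 6.02% CACGTG, 33.8% CCAAT and 12.4% TATAAA in their first 250 bases. Each of the 3 windows matched the NCBIM37 genome exactly once. The RefSeq start lies 255 bases before the start of the Adrb1 row and 27 bases before that of the Adra1b row, and 77 bases inside the Adra2a row. These matches describe the letters only.

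Adrb3 had the highest level of the 8 receptors in each tissue. In iWAT it had a lowest, median and highest value of 8.42, 13.2 and 18.8 RPKM, from 735 to 1654 reads per sample. In eWAT these values were 2.01, 7.14 and 13.7 RPKM, from 173 to 1175 reads, and in BAT they were 58.8, 72.1 and 111 RPKM, from 3903 to 10651 reads. All 6 BAT samples thus lay above all 12 white samples, while the white depots overlapped. The eWAT samples spread most, with a 6.80-fold range: eWAT 3 (2.01 RPKM), eWAT 1 (3.03 RPKM) and eWAT 16 (5.4 RPKM) lay below every iWAT sample, and eWAT 2 (8.87 RPKM), eWAT 4 (12.2 RPKM) and eWAT 5 (13.7 RPKM) lay within the iWAT range.

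Adrb1 encodes the beta1 receptor, the main beta receptor of the heart, which is also present in fat. It had 0.736, 0.974 and 1.26 RPKM in iWAT (57 to 90 reads), 0.156, 0.25 and 0.454 RPKM in eWAT (13 to 36 reads) and 5.66, 8.07 and 11 RPKM in BAT (352 to 1061 reads), as lowest, median and highest. The 3 groups did not overlap. BAT was the highest and eWAT the lowest, and the BAT mean was 8.20 ± 2.14 RPKM.

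**Figure D1:**
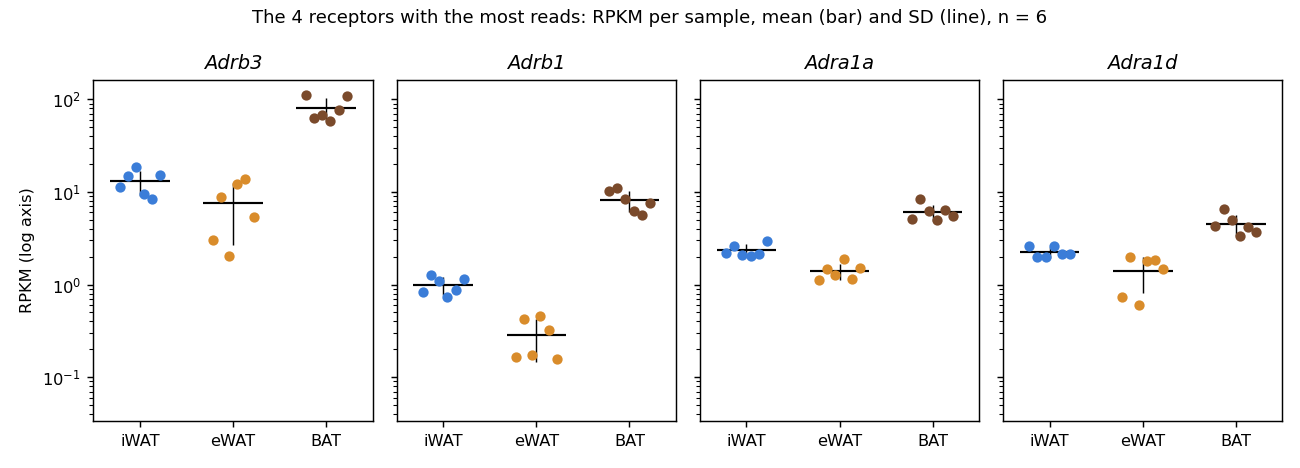
RPKM of Adrb3, Adrb1, Adra1a and Adra1d in each sample (points, log axis) of iWAT adipocytes, eWAT adipocytes and BAT, with the mean (bar) and SD (line) of 6 samples. For each gene the lowest BAT sample lies above the highest white sample, and the eWAT samples of Adrb3 run from 2.01 to 13.7 RPKM.

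Of the alpha1 receptors, 2 were present at a mean of over 1 RPKM in every tissue. Adra1a encodes the alpha1A receptor. It had 2.05, 2.16 and 2.97 RPKM in iWAT, 1.13, 1.37 and 1.87 RPKM in eWAT and 4.92, 5.91 and 8.29 RPKM in BAT, and the 3 groups did not overlap. Its reads ran from 317 in eWAT 5 to 2985 in BAT 2. On the other strand, the span of AK039291 covers 1469 exonic bases of Adra1a and that of AK040829 covers 1009, and their reads equalled 20.9% to 33.6% and 21.1% to 40.6% of the Adra1a reads in the 18 samples. AK078237, on the same strand, covers no exonic base of Adra1a, and its reads equalled 16.1% to 26.5% of the Adra1a reads in the white depots and 49.2% to 68.2% in BAT.

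Adra1d encodes the alpha1D receptor, known from vascular smooth muscle. Its lowest, median and highest values were 1.97, 2.15 and 2.64 RPKM in iWAT, 0.604, 1.62 and 1.99 RPKM in eWAT and 3.35, 4.25 and 6.54 RPKM in BAT. BAT lay above both white depots in every sample. The white depots met at one end, since the highest eWAT sample, eWAT 2 (1.99 RPKM), passed the lowest iWAT sample, iWAT 2 (1.97 RPKM). As for Adrb3, eWAT 3 and eWAT 1 were the lowest eWAT samples, at 0.604 and 0.741 RPKM. The overlapping row ENSMUSG00000087524 on the other strand had reads equal to 31.1% to 55.8% of those of Adra1d.

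Adra1b encodes the alpha1B receptor and was weak in every tissue. It had 11 to 36 reads per sample in iWAT (0.218 ± 0.0779 RPKM), 6 to 13 reads in eWAT (0.0921 ± 0.0338 RPKM) and 2 to 6 reads in BAT (0.0317 ± 0.0108 RPKM). Its order among tissues was the opposite of that of the other alpha1 receptors with regard to BAT: every BAT sample lay below every iWAT sample. The ranges of eWAT and BAT overlapped, because eWAT 1 (6 reads, 0.0412 RPKM) lay below BAT 18 (6 reads, 0.0497 RPKM).

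The alpha2 receptors, which couple to Gi, had at most 48 reads in any sample. Adra2a encodes the alpha2A receptor and had the most reads of the 3 in the white depots. In iWAT samples 1, 2, 3, 4, 5 and 16 it had 31, 20, 16, 12, 48 and 9 reads, in the same order in eWAT 9, 11, 14, 20, 17 and 22 reads, and in BAT samples 1, 2, 5, 16, 17 and 18 it had 3, 2, 4, 2, 3 and 6 reads. The means were 0.20 ± 0.128 RPKM in iWAT, 0.131 ± 0.0533 RPKM in eWAT and 0.0287 ± 0.0130 RPKM in BAT. The white depots overlapped, and in RPKM each white sample lay above each BAT sample. With the TMM scaling described below, eWAT 1 (0.0502 RPKM) lay below BAT 5 (0.0605 RPKM) and BAT 18 (0.0626 RPKM). The separation of eWAT from BAT thus depends on the scaling. All iWAT samples stayed above BAT, the lowest being iWAT 16 at 0.0690 RPKM. In iWAT, sample 5 was the highest at 0.418 RPKM and sample 16 the lowest at 0.0759 RPKM, a 5.51-fold range. The row AK046211 on the other strand, which covers 1703 exonic bases of Adra2a, had 3 to 14 reads per sample in iWAT, 4 to 7 in eWAT and 0 to 1 in BAT.

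Adra2b, the alpha2B receptor gene, had 25, 2, 2, 9, 8 and 12 reads in the iWAT samples in the same order, 5, 2, 2, 3, 0 and 4 reads in eWAT and 6, 7, 1, 8, 8 and 5 reads in BAT. All groups overlapped. Of the 58 reads in iWAT, 25 came from sample 1, and 16 and 35 reads in all were found in eWAT and BAT. Adra2c, the alpha2C receptor gene, had 1, 2, 1, 1, 6 and 1 reads in iWAT, 2, 1, 1, 1, 0 and 3 reads in eWAT and 8, 8, 0, 9, 4 and 4 reads in BAT. Its eWAT samples were all at or under 3 reads, the limit that a count of 0 allows, which is worth 0.0354 RPKM in the shallowest eWAT sample. Of the 6 BAT samples, 5 were above 3 reads. Read counts carry counting error only, and no source used here says whether copies made by PCR were removed.

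**Figure D2:**
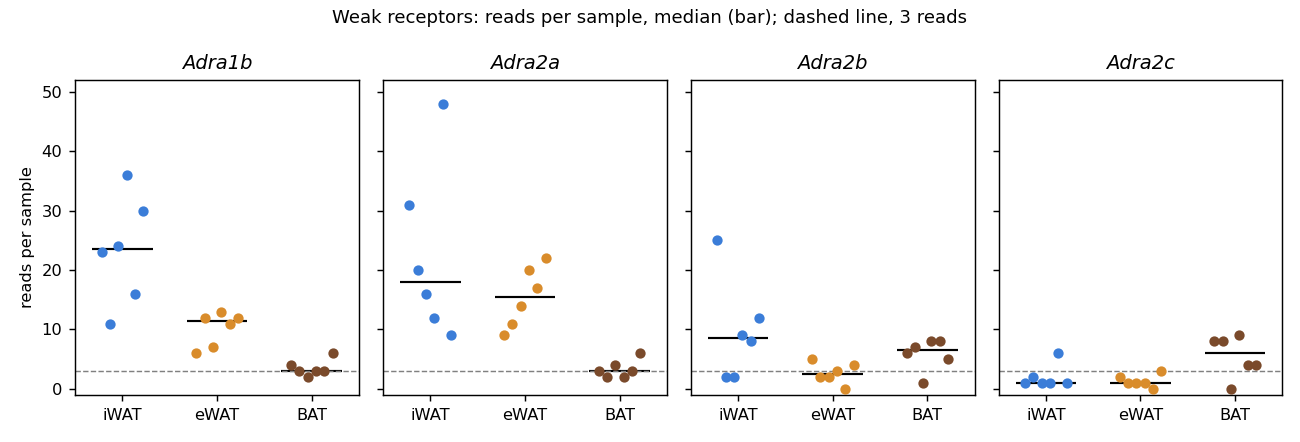
Reads per sample (points, linear axis) on Adra1b, Adra2a, Adra2b and Adra2c in iWAT adipocytes, eWAT adipocytes and BAT, with the median (bar) and a dashed line at 3 reads. Adra1b and Adra2a have 2 to 6 reads in every BAT sample, and Adra2c stays at or under 3 reads in every eWAT sample.

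Ordered by mean RPKM, the receptors ran in iWAT from Adrb3 (13.0) through Adra1a (2.34), Adra1d (2.26), Adrb1 (0.989), Adra1b (0.218), Adra2a (0.20) and Adra2b (0.0799) to Adra2c (0.0210). In eWAT the order was Adrb3 (7.53), Adra1d (1.40), Adra1a (1.40), Adrb1 (0.284), Adra2a (0.131), Adra1b (0.0921), Adra2b (0.0199) and Adra2c (0.0125). In BAT, Adrb1 came second, in the order Adrb3 (80.8), Adrb1 (8.20), Adra1a (6.09), Adra1d (4.52), Adra2c (0.0559), Adra2b (0.0467), Adra1b (0.0317) and Adra2a (0.0287). Neighbours whose ranges did not overlap were Adrb3 and the next receptor in each tissue, Adra1d and Adrb1 as well as Adrb1 and Adra1b in iWAT, Adra1a and Adrb1 as well as Adra1b and Adra2b in eWAT, and Adra1d and Adra2c in BAT. All other neighbours overlapped. A mean of at least 1 RPKM was reached by 3 of the 8 receptors in iWAT, 3 in eWAT and 4 in BAT.

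The iWAT and eWAT adipocytes were compared first, using the read counts, edgeR's quasi-likelihood test and Benjamini-Hochberg adjustment over the 19623 genes that had 10 or more reads on average in the 12 samples. At an adjusted p of 0.05, 68.6% of these genes were called, 34.1% higher in iWAT and 34.5% higher in eWAT. Of the 8 receptors, 6 could be tested and 4 were called, all higher in iWAT. The median log2 fold change of the 6 was 0.78, against 0.00 over all genes tested. Adrb1 was 3.55-fold higher in iWAT (log2 fold change 1.83 ± 0.28 SE, adjusted p = 9.1e-05 by edgeR), Adra1b 2.42-fold (1.27 ± 0.31, adjusted p = 0.0025), Adra1a 1.68-fold (0.75 ± 0.15, adjusted p = 0.00050) and Adra1d 1.62-fold (0.69 ± 0.26, adjusted p = 0.029). For Adra1d the call rested on single samples: it was lost without iWAT 4 (0.64, adjusted p = 0.058) and without eWAT 1 (0.55, adjusted p = 0.054).

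Adrb3 itself was not called between the white depots. Its log2 fold change was 0.80 ± 0.41, a 1.74-fold higher level in iWAT, with a 95% interval of -0.0041 to 1.61 and an adjusted p of 0.098 by edgeR. It passed the threshold without eWAT 5, the highest eWAT sample (1.06, adjusted p = 0.037), with lane as a covariate (1.11, adjusted p = 0.038) and with limma on log2(RPKM + 0.1) or log2(RPKM + 1) (1.03 and 0.90, adjusted p = 0.048 and 0.046). Adra2a was not called either (0.62 ± 0.40, 95% interval -0.17 to 1.41, adjusted p = 0.19). Adra2b and Adra2c were below the filter. In the same test without a filter, Adra2b was higher in iWAT (log2 fold change 1.95, adjusted p = 0.016) and Adra2c was not called (0.68, adjusted p = 0.42), where 36.9% of all genes were called. Libraries of the white depots were sequenced in lanes 1 and 2, with 2 iWAT and 4 eWAT samples in lane 1 and the reverse in lane 2. Within lanes 1 and 2, mean RPKM was higher in iWAT for Adrb1 by 2.77-fold and 6.26-fold, for Adrb3 by 1.64-fold and 2.84-fold, for Adra1a by 1.48-fold and 1.84-fold, for Adra1b by 2.16-fold and 3.03-fold, for Adra1d by 1.49-fold and 2.02-fold and for Adra2a by 1.48-fold and 1.71-fold. The direction was the same in both lanes for these 6 genes.

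BAT was compared with each white depot next. Its samples were sequenced in lanes 3 and 4, apart from the white depots, so tissue and lane cannot be told apart, and whole tissue is set against isolated cells. TMM scaling, which sets the bulk of the genes level between samples, took away a general shift: by the total count alone, the log2 fold changes of all genes had a median of 0.87 for iWAT over BAT and 0.89 for eWAT over BAT. Against iWAT, 75.3% of 19745 genes tested were called, 38.1% higher in iWAT and 37.2% higher in BAT, and without TMM 69.4% and 15.5%. Of the 8 receptors, 6 could be tested and 6 were called, 4 higher in BAT and 2 higher in iWAT. The 2 higher in iWAT passed the filter through their iWAT reads alone. The median log2 fold change of iWAT over BAT was -1.79 for the 6, against 0.01 over all genes. Adrb1 was 12.6-fold higher in BAT (log2 fold change of iWAT over BAT -3.65 ± 0.18, adjusted p = 7.6e-11 by edgeR), Adrb3 9.36-fold (-3.23 ± 0.23, adjusted p = 3.8e-09), Adra1a 3.95-fold (-1.98 ± 0.13, adjusted p = 1.2e-09) and Adra1d 3.04-fold (-1.60 ± 0.13, adjusted p = 2.0e-08).

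The 2 receptors that were higher in iWAT than in BAT passed the filter through their iWAT reads alone. With 2 to 6 reads in each BAT sample, they could pass it only if higher in iWAT, so the filter fixed the direction of these calls. Adra1b was 4.49-fold higher in iWAT (log2 fold change 2.17 ± 0.34, adjusted p = 2.7e-05 by edgeR) and Adra2a 4.55-fold (2.18 ± 0.46, adjusted p = 0.00050). In the test without a filter, their log2 fold changes were 2.26 and 2.28 (adjusted p = 8.1e-06 and 9.9e-05 by edgeR). Without iWAT 5, which had 48 of its 136 iWAT reads, Adra2a fell below the filter. Adra2b and Adra2c were not tested. Without a filter, Adra2c was lower in iWAT than in BAT (log2 fold change -1.84, adjusted p = 0.013) and Adra2b was not called (0.27, adjusted p = 0.67), where 49.8% of all genes were called. Under scaling by the total count alone, the 6 log2 fold changes kept their sign and their call, at -2.81 for Adrb1, -2.39 for Adrb3, -1.14 for Adra1a, -0.76 for Adra1d, 2.99 for Adra1b and 3.03 for Adra2a.

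Between eWAT and BAT, 82.5% of 20076 genes tested were called, 41.1% higher in eWAT and 41.4% higher in BAT, and without TMM 64.6% and 20.2%. Only 4 receptors could be tested, and all 4 were higher in BAT, with a median log2 fold change of eWAT over BAT of -3.36 against -0.02 over all genes. Adrb1 was 43.9-fold higher in BAT (-5.46 ± 0.26, adjusted p = 2.8e-11 by edgeR), Adrb3 16.1-fold (-4.01 ± 0.42, adjusted p = 2.9e-07), Adra1a 6.53-fold (-2.71 ± 0.14, adjusted p = 5.8e-11) and Adra1d 4.84-fold (-2.28 ± 0.26, adjusted p = 7.2e-07). These comparisons share the BAT samples with those against iWAT. Adra1b, Adra2a, Adra2b and Adra2c had under 10 reads on average over the 12 samples and were not tested. Without a filter all 4 were called, Adra2a (log2 fold change 1.69, adjusted p = 0.00098) and Adra1b (1.02, adjusted p = 0.033) higher in eWAT, and Adra2c (-2.47, adjusted p = 0.0019) and Adra2b (-1.62, adjusted p = 0.0098) higher in BAT. The number of receptors called thus went from 4 of 4 tested to 8 of 8 with the filter removed, where 55.5% of 39705 genes were called. Without BAT 1, 2, 16 or 17, Adra2a passed the filter and was called higher in eWAT. The log2 fold changes were 1.39 to 1.57 (adjusted p of 0.0037 to 0.0059 by edgeR). It passed through its eWAT reads (9 to 22 per sample, against 2 to 6 in BAT), so the filter allowed only this direction. Under scaling by the total count alone, the log2 fold changes of eWAT over BAT were smaller, at -4.56 for Adrb1, -3.11 for Adrb3, -1.80 for Adra1a and -1.38 for Adra1d, each still called.

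**Figure D3:**
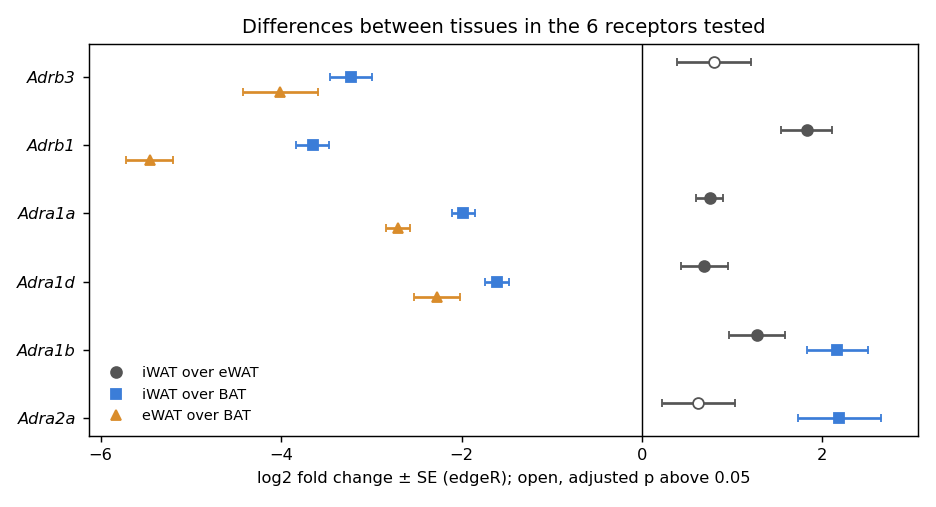
Log2 fold changes with their SE (edgeR, counts, TMM) for the 6 receptors that could be tested in at least 1 comparison, as iWAT over eWAT (circles), iWAT over BAT (squares) and eWAT over BAT (triangles), with open symbols where the adjusted p was above 0.05. Adrb3, Adrb1, Adra1a and Adra1d lie left of 0 in both comparisons with BAT. Adra1b and Adra2a lie right of 0 in that of iWAT with BAT, which they entered through their iWAT reads alone.

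Ratios of 2 genes within a sample do not depend on how samples are scaled. They were taken on RPKM with 0.5 reads added to each count, and compared by exact permutation tests, two-sided, adjusted over 9 tests (924 splits of 6 against 6, smallest p 0.0022). Adrb3 exceeded Adrb1 in all 18 samples, by 9.67-fold to 17.3-fold in iWAT, 11.1-fold to 41.3-fold in eWAT and 5.72-fold to 14.1-fold in BAT. The mean log2 ratio was 4.52 ± 0.68 in eWAT, 3.68 ± 0.27 in iWAT and 3.30 ± 0.50 in BAT. It was 2.34-fold higher in eWAT than in BAT (exact permutation, adjusted p = 0.012) and 1.79-fold higher in eWAT than in iWAT (exact permutation, adjusted p = 0.031), with overlapping ranges in both cases. The latter lost its call when iWAT 2, 4, 5 or 16 or eWAT 2, 4, 5 or 16 was left out (log2 differences of iWAT minus eWAT of -0.88 to -0.67, adjusted p of 0.0501 to 0.0612 by exact permutation), and with 3 reads added in place of 0.5 (-0.72, adjusted p = 0.056 by exact permutation). Between iWAT and BAT the difference of 0.38 ± 0.23 SE was not called (exact permutation, adjusted p = 0.15).

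The ratio of Adrb3 to Adra2a sets the gene of a Gs-coupled receptor against that of a Gi-coupled one. It ran from 19.9 to 188.7 in iWAT, from 15.7 to 99.3 in eWAT and from 1381 to 3963 in BAT. The mean log2 ratio of BAT (11.3 ± 0.58) exceeded that of iWAT (6.16 ± 1.18) by 35.4-fold and that of eWAT (5.59 ± 1.0) by 52.6-fold, without overlap (exact permutation, adjusted p = 0.0049 for each, from the smallest p that the design allows). BAT counts of Adra2a were 2 to 6 reads, so that the size of these folds rests on few reads. The white depots overlapped and did not differ past the threshold (difference 0.57 ± 0.63 SE, exact permutation, adjusted p = 0.38).

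**Figure D4:**
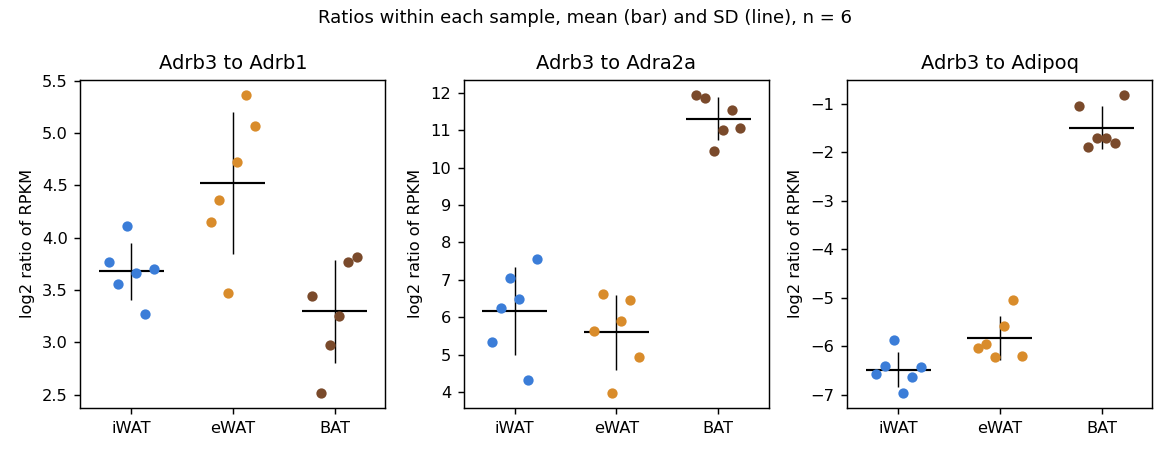
Log2 ratios of RPKM within each sample (points) of Adrb3 to Adrb1, to Adra2a and to Adipoq, by tissue, with the mean (bar) and SD (line) of 6 samples. BAT stands apart from both white depots in the last 2 ratios, and the 3 tissues overlap in the ratio to Adrb1.

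Since the tissues differ in their adipocyte markers, Adrb3 was also set against Adipoq, the adiponectin gene, in each sample. Adrb3 had 8.03 to 17.2 RPKM per 1000 RPKM of Adipoq in iWAT, 13.5 to 30.5 in eWAT and 271 to 571 in BAT. On this scale the order of the white depots was the reverse of that of the levels: eWAT was 1.56-fold higher than iWAT (difference of iWAT minus eWAT in log2 -0.64 ± 0.24 SE, exact permutation, adjusted p = 0.023), with overlapping ranges. BAT was 31.7-fold higher than iWAT and 20.3-fold higher than eWAT, without overlap (exact permutation, adjusted p = 0.0049 for each). Mean Adipoq was 221 RPKM in BAT and 387 RPKM in eWAT, and Cidec and Lep were also lower in BAT. Plin1 (196 against 116 RPKM) and Fabp4 (5087.5 against 4050 RPKM) were higher in BAT than in eWAT. The size of these folds thus depends on the marker chosen, and ratios to other adipocyte markers were not taken. The macrophage gene Cd68 had 140 ± 32.8 RPKM in iWAT, 567 ± 93.3 RPKM in eWAT and 3.11 ± 0.813 RPKM in BAT, and its part in the comparison of the white depots was not tested.

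Within eWAT, samples with more Adipoq tended to have more Adrb3 (Pearson r = 0.94, exact permutation p = 0.0097, n = 6). Adjusted over 6 tests this p was 0.058, above the threshold. Spearman's rho was 0.83 (exact permutation p = 0.058, adjusted 0.31). The 2 samples lowest in Adrb3, eWAT 3 and eWAT 1, had 149.9 and 199.3 RPKM of Adipoq, against 396 to 579 RPKM in the others. When the 2 samples with the most extreme Adipoq were left out, r was 0.55, so the relation rested on them. With Cd68, r was -0.85 in eWAT (exact permutation p = 0.047, adjusted 0.14, rho = -0.77) and -0.15 when the 2 samples most extreme in Cd68 were left out. None of the 6 correlations passed an adjusted p of 0.05 in any tissue. For iWAT and BAT, r with Adipoq was 0.60 (rho = 0.54) and -0.04 (rho = 0.03). There, r with Cd68 was -0.12 and 0.11 (rho = 0.03 and 0.26). Adjusted p was 0.41 or more for each r in iWAT and BAT by exact permutation.

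**Figure D5:**
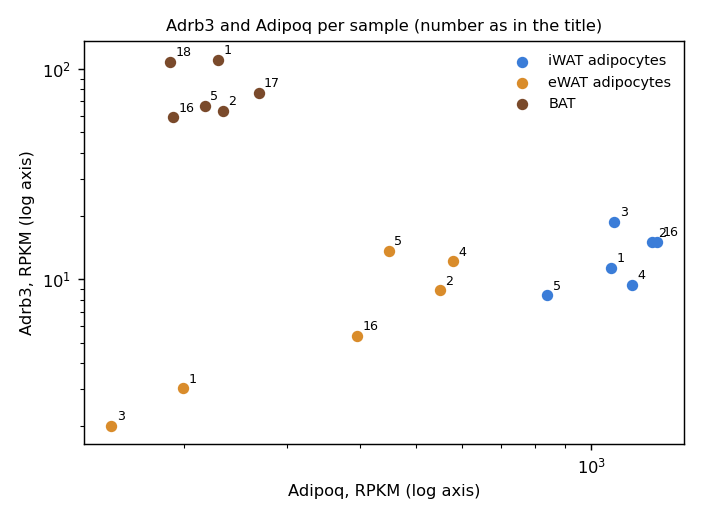
Adrb3 against Adipoq in each sample (RPKM, log axes), with the number in the sample title beside each point. BAT lies at the top left with 58.8 to 111 RPKM of Adrb3, and eWAT samples 3 and 1 are low in both genes.

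The genes whose pattern over the 18 samples was most like that of a receptor were sought among 14157 symbols with a mean of at least 1 RPKM, by Pearson's r of log2(TMM-scaled RPKM + 0.1). This is a description without a test, and the differences between tissues dominate it. The overlapping rows AK080970 (r = 0.99), AK040829 (r = 0.996) and ENSMUSG00000087524 (r = 0.98) came first for Adrb3, Adra1a and Adra1d. Next to Adrb3 came Pm20d1 and Fasn (r = 0.99 and 0.98), of which Fasn encodes fatty acid synthase. After the deviations from the tissue means alone were taken, r was 0.90 and 0.87. For Adrb1 the nearest were Echdc3, Ldhb and AK149037 (r = 0.99 each, and 0.75, 0.64 and 0.69 within tissues). For Adra1a they were also Ube3b and AK078237 (r = 0.99 each), and AK078237 is a further row that overlaps Adra1a. For Adra1d they were 9530008L14Rik and Lynx1 (r = 0.98 each). The weaker genes had lower values, with AK038305, Net1 and AK049076 for Adra1b (r = 0.92 each) and Snai1, Il1r1 and Ets2 for Adra2a (r = 0.91, 0.90 and 0.90). Within tissues, Adrb3 correlated with Adrb1 by r = 0.68 and with Adra1d by r = 0.66, while Adra1b and Adra2a gave r = -0.19 (18 samples each, no test).

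Of 58 genes of the signaling around these receptors, 48 could be tested in each comparison. Between the white depots 41 of these 48 were called, 23 higher in iWAT and 18 higher in eWAT, against 68.6% of all genes. Over all genes, 34.1% were higher in iWAT and 34.5% higher in eWAT. Whether the groups of pathway genes depart from these shares was not tested, so their counts are descriptions. The lipolysis and thermogenesis targets went one way: 6 of 7 were higher in iWAT and none in eWAT, among them Lipe, the hormone-sensitive lipase (192.8 ± 28.7 RPKM in iWAT and 69.98 ± 29.0 RPKM in eWAT, log2 fold change 1.47 ± 0.27, adjusted p = 0.00035 by edgeR), Pnpla2, the adipose triglyceride lipase (1.25 ± 0.22), Plin1 (1.63 ± 0.28) and Ucp1 (3.09 ± 0.24). The adipocyte markers, of which Plin1 is one, had higher sums in iWAT too, and their part in this was not tested. Of the 8 receptor kinases, arrestins and RGS genes, 5 were higher in eWAT, with Adrbk1, the kinase that desensitizes beta receptors, at -0.91 ± 0.08 and Rgs2 at -1.03 ± 0.18, and 1 was higher in iWAT.

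Genes of the G proteins that the receptors couple to were split in each group. Of 5 Gi and Go genes, 3 were higher in iWAT, with Gnai1 at 80.3 ± 12.9 RPKM in iWAT and 37.0 ± 16.7 RPKM in eWAT (log2 fold change 1.13 ± 0.29), and 2 were higher in eWAT, Gnai2 (-0.55 ± 0.10) and Gnai3 (-0.37 ± 0.07). Of the 14 tested genes of Gs, cyclic AMP and protein kinase A, 7 were higher in each depot. Gnas, which encodes Gs, was higher in iWAT by 0.36 ± 0.08, as were Prkar2b (1.45 ± 0.26) and Prkaca (0.88 ± 0.13), subunits of protein kinase A. Of 7 tested Gq and phospholipase C genes, 3 were higher in iWAT, including Gna11 (1.23 ± 0.13), and 2 in eWAT, while Gnaq (-0.05 ± 0.05, adjusted p = 0.45) and Plcb3 (0.11 ± 0.07, adjusted p = 0.15) were not called.

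Against BAT, the split of the pathway genes depended on the scaling. With TMM, 15 of 48 were higher in iWAT and 21 in BAT (no TMM, 30 and 9), and 18 were higher in eWAT and 23 in BAT (no TMM, 26 and 16). Over all genes, the shares higher in iWAT and in BAT were 38.1% and 37.2% with TMM and 69.4% and 15.5% without, and those higher in eWAT and in BAT were 41.1% and 41.4% with TMM and 64.6% and 20.2% without, so the split of the pathway genes turned as that of all genes did. Genes that kept their direction under both scalings included Gnas, with 94.6 ± 11 RPKM in BAT against 30.2 ± 1.21 RPKM in iWAT and 23.7 ± 1.67 RPKM in eWAT (log2 fold change of iWAT over BAT -2.26 ± 0.11). They also included the Gi genes Gnai1, Gnai2 and Gnai3, which were lower in BAT than in iWAT by 2.63 ± 0.15, 1.23 ± 0.10 and 1.17 ± 0.08 on the log2 scale. Gnai1 had 8.58 ± 1.66 RPKM in BAT. Ucp1 was higher in BAT than in iWAT by a log2 fold change of iWAT over BAT of -10.3 ± 0.22. For Lipe, the difference between iWAT and BAT turned from -0.42 ± 0.12 with TMM to 0.43 ± 0.12 without it. Prkar2b went from -0.81 to 0.04 ± 0.13, Prkaca from -0.72 to 0.13 ± 0.12 and Pnpla2 from -0.85 to -0.0023. None of these was called without TMM. No direction is given for these 4 genes, Lipe included.

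Noradrenaline itself is made in nerve endings. The RNA of 3 enzymes that take part in making noradrenaline or adrenaline was at or near 0. These RNA levels do not show where noradrenaline was made, which was not tested. Th, tyrosine hydroxylase, had 0 reads in all white samples and at most 1 read in BAT, and Dbh and Pnmt had 0 reads in all 18 samples, which allows up to 3 reads in each. Slc6a2, the noradrenaline transporter, had at most 7 reads in a sample. Genes of uptake and breakdown were present. Slc22a3, a transporter of organic cations, was higher in iWAT than in eWAT (27.6 ± 5.62 against 11.2 ± 5.62 RPKM, log2 fold change 1.31 ± 0.31, adjusted p = 0.0020 by edgeR), as was Maob, a monoamine oxidase (11.7 ± 1.53 against 4.17 ± 1.99 RPKM, 1.5 ± 0.30, adjusted p = 0.00063 by edgeR). Of 7 genes of this group that could be tested, 3 were higher in iWAT and 2 in eWAT.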

How the data were processed

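Total RNA was sequenced (Illumina) from 18 samples, 6 each of iWAT adipocytes, eWAT adipocytes and BAT. Per the labels, reads were trimmed with cutadapt 1.16 and mapped to mm9 with HISAT2 2.1.0. The counting program and its use of strand are not given in the sources used here. For each transcript row the authors deposited the read count and the RPKM. The 8 receptors and the gene lists were chosen with earlier results of these data known. Per comparison, counts of its 12 samples were tested with edgeR 4.0.16 in R 4.3.3 (glmQLFit and glmQLFTest, TMM, two-sided, mean count of at least 10, Benjamini-Hochberg over all genes tested, adjusted p of 0.05), and the test was checked on simulated data. SEs were derived from the F statistics, and 95% intervals are 1.96 SE. Ratios and correlations were tested by exact permutation in scipy 1.17.1. Reads and floors of 3 reads cover counting error only. Named genes are the 8 receptors, at most 3 genes with the highest mean RPKM in each pathway group, Ucp1, Lipe, Th and Slc6a2, the marker genes, and the 3 symbols most like each receptor with a mean count of at least 10. Dbh and Pnmt were named after their values were seen. A gene that this rule names is not reported here. Alternatives were DESeq2 1.42.0, no TMM, no filter, all 18 samples in one fit, limma 3.58.1 on log2(RPKM + 0.1 or 1), rows summed per symbol, lane as a covariate, a replicate block, 3 reads added in ratios and leaving out each sample. Promoter sequences are from RefSeq (GRCm38.p6).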

Additional observations from a re-analysis of the deposited data

Results flagged for a closer look

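One value stood far from the others of its group. Adra2c in iWAT sample 5 had 0.0621 RPKM, from 6 reads, and the next highest iWAT sample had 0.0229 RPKM. The gap was 0.753 of the group's range, above Dixon's 95% critical value for 6 samples. Of 33 groups of samples examined in this way, 1 gave such a value, and chance alone gives about 1.65.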

How the results depend on the processing

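The log2 fold changes of the 6 receptors tested kept their sign in every comparison and alternative run. Calls that changed were those of Adrb3 (gained) and Adra1d (lost) between the white depots, of Adra2a, which left the test of iWAT against BAT without iWAT 5 and entered that of eWAT against BAT without BAT 1, 2, 16 or 17 (1.39 to 1.57), and of receptors that entered without the filter, given with those results. Receptors called numbered 3 to 5 between iWAT and eWAT, 5 to 6 between iWAT and BAT and 4 to 5 between eWAT and BAT when single samples were left out, and 8 between eWAT and BAT without the filter in place of 4. The numbers of the samples gave no sign of pairing: deviations of same-numbered samples correlated by -0.25 to 0.43, and 1 of 6, 1 of 4 and 2 of 4 samples correlated best with their own number. With the number as a replicate block, edgeR called as many receptors as before in each comparison (4, 6 and 4). Pathway genes called between iWAT and BAT went from 36 to 30. All genes called there went from 14864 to 12555 of 19745, so the pathway genes lost calls as all genes did. For ratios, the block left 4 or 6 pairs, which cannot give a p under 0.125 or 0.031, and none was called: the differences of log2 ratios of Adrb3 to Adrb1 were -0.84 (iWAT over eWAT) and 1.69 (eWAT over BAT), to Adra2a -5.44 (iWAT over BAT) and -5.39 (eWAT over BAT), and to Adipoq -0.64, -4.93 and -4.22. Without single samples, the log2 ratio of Adrb3 to Adrb1 between iWAT and eWAT ran from -1.05 to -0.67, and with 3 reads added it was -0.72, past the threshold no more. Fewer samples allow fewer splits in such a test. Without the 2 samples farthest from the median, the correlation of Adrb3 with Adipoq went from -0.04 to 0.51 in BAT and from 0.60 to -0.028 in iWAT, and that with Cd68 from -0.12 to -0.82 in iWAT and from 0.11 to 0.63 in BAT. With Cd68 in BAT it went to -0.13 on TMM-scaled RPKM. The cause was not tested. Depth limits Adra2b and Adra2c in all tissues and Adra1b and Adra2a in BAT.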
